A study of Mus musculus with 6 samples.

Results

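The genes described here are 9 interferon response genes measured by RNA-seq in the mouse hippocampus: Stat2, Irf7, Irf9, Isg15, Ifit1, Ifit3, Ifi27, Bst2 and Oasl2. They were chosen by name as known interferon-stimulated genes and factors, with earlier results of these data known. All 9 were found by symbol among the 55471 genes of the count table. All 9 had reads in every library and entered the test. The study sequenced the hippocampus of 6 male C57BL/6 mice of 3 to 6 months, with 1 library per mouse, in 3 p300-ifKO mice and 3 control littermates. A p300-ifKO (inducible forebrain knockout) mouse carries floxed alleles of Ep300, which encodes the lysine acetyltransferase p300, and a Camk2a-creERT2 transgene, in which the Camk2a promoter drives a tamoxifen-inducible Cre recombinase in excitatory forebrain neurons. By the protocol, both groups were given tamoxifen into the stomach 5 times on alternate days (at 20 mg/ml in corn oil), and RNA was taken about a month after gene ablation. The same protocol makes the controls creERT2-negative, but the sample descriptions of the control libraries name Camk2a_creERT2. Esr1 and Arsi, which are linked to the transgene, were far lower in every control library than in every p300-ifKO library (values below). The model limits recombination to one class of cells: microglia, endothelium and other glia keep both Ep300 alleles, and a truncated p300 protein may still be made in recombined neurons. The samples are whole tissue, so fewer cells of a type and less RNA per cell cannot be told apart.

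Type I interferons bind a receptor whose kinases phosphorylate STAT proteins, among them STAT2. STAT2 joins IRF9 in a complex called ISGF3, which binds a promoter element, the interferon-stimulated response element (ISRE), in front of antiviral genes. Low, constant signaling of this kind keeps such genes detectable in the uninfected brain, where microglia and endothelium are among the responding cells. p300 and the related CBP are known as coactivators of STAT and IRF factors.

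As the ISRE is the element that ISGF3 binds, the promoter window of each gene was searched on both strands for the ISRE core. The window ran from 250 bases before to 50 bases after the start in RefSeq (GRCm38.p6). The core was taken as 2 copies of GAAA with 2 bases of any kind between them. Variant elements, or elements outside the window, would be missed. Of the 9 genes, 8 had a window in the RefSeq table and Ifi27 had none. The core was found in 5 of the 8, against 3.44% of all 32851 windows. These 5 stretches are shown because they hold every match, with the matched bases in capitals and 15 bases on each side, written 5′ to 3′ on the strand of the gene.
Stat2: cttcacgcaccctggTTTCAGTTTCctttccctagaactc
Isg15: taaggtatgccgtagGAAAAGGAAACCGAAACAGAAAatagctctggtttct
Ifit1: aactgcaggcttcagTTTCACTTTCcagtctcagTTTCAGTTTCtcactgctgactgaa
Ifit3: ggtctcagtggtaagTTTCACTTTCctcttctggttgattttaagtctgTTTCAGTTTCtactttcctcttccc
Bst2: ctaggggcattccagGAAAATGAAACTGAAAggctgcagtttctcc

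The Stat2 stretch lies at chr10:128270261-128270300 on the plus strand and its single match begins 222 bases before the start. The Isg15 stretch, at chr4:156200860-156200911 on the minus strand, holds 3 overlapping matches that together run from 78 to 57 bases before the start. Ifit1 (chr19:34640770-34640828, plus strand) and Ifit3 (chr19:34583358-34583431, plus strand) each hold 2 separate matches, and the first begins 104 bases before the start in Ifit1 and 156 bases before it in Ifit3. In Bst2 (chr8:71537572-71537617, minus strand) 2 matches overlap, from 130 to 115 bases before the start. No match was present in the windows of Irf7, Irf9 or Oasl2. The element of the interferon gamma response (GAS, searched as TTCNNNGAA, which reads the same on both strands) was present in 1 of the 8 genes, Bst2, and in 8.3% of all windows.

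The genotype was checked first. Ep300 had 1545, 1474 and 2334 normalized read counts (reads divided by the DESeq2 size factor of the library) in control replicates 1 to 3 and 478, 1350 and 912 in p300-ifKO replicates 1 to 3. The groups did not overlap, and p300-ifKO replicate 2 kept the highest Ep300 level of the 3 p300-ifKO libraries, also with the length offsets described below (638, 1211 and 966 in p300-ifKO, 1461 to 1945 in control). A count per gene does not resolve the deleted exon, and the log2 fold change of −0.97 (SE 0.33) had an adjusted p of 0.99 in DESeq2. Esr1, whose ligand binding domain is part of creERT2, had 87.2 to 109 normalized counts in control and 2416 to 4217 in p300-ifKO libraries, and Arsi, linked to the transgene, had 24.2 to 38.8 in the former and 168 to 204 in the latter. These were the 2 genes with an adjusted p under 0.05 among 32773 genes tested (DESeq2, 4.47e-92 for Esr1 and 2.98e-17 for Arsi), which is 0.0061% of genes. Crebbp, which encodes CBP, had 1984 to 2180 normalized counts in control and 1957 to 2055 in p300-ifKO libraries.

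Depth was alike, with 23151568 to 28433823 counted reads per library, but the libraries differed in a trend with exonic length. Over the 17071 genes with a mean normalized count of 10 or more, Spearman's rho between exonic length and a library's log ratio to the mean library was 0.176, 0.16 and 0.411 in the control libraries and −0.504, 0.415 and −0.277 in p300-ifKO replicates 1 to 3. Short genes thus read high in p300-ifKO replicates 1 and 3 and low in p300-ifKO replicate 2, and the length-corrected values are given with the results below.

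None of the 9 interferon response genes passed the test between p300-ifKO and control, and all 9 had a higher mean in p300-ifKO, as did 49.3% of the 17071 genes. By level per length in the control hippocampus, Ifi27 stood first, at 124 ± 13.4 TPM (reads per exonic length, scaled to the same total in each library, SD, n = 3). Stat2 followed at 23.7 ± 1.14 TPM. Bst2 (16.2 ± 2.38 TPM), Ifit3 (14.8 ± 2.34 TPM), Isg15 (13.4 ± 2.14 TPM) and Irf9 (12.02 ± 1.43 TPM) formed a middle group in which the control range of each gene overlapped that of the next. Ifit1 (4.94 ± 0.97 TPM), Oasl2 (3.87 ± 1.03 TPM) and Irf7 (2.87 ± 0.78 TPM) were the lowest, again with overlapping ranges. The control ranges did not overlap between Ifi27 and Stat2, between Stat2 and Bst2, or between Irf9 and Ifit1.

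In the fit without a length term, the subunits of ISGF3 were the members with the smallest differences. With length offsets Isg15 (0.188 on the log2 scale) came below Irf9 (0.192), and with 1 surrogate variable Isg15 (0.037) and Ifi27 (0.201) came below both Stat2 (0.210) and Irf9 (0.232). Stat2 (chr10:128270559-128292849, plus strand), the STAT of the type I receptor, had 928, 891 and 928 normalized counts in the control libraries and 861, 1095 and 988.5 in the p300-ifKO libraries. The p300-ifKO values lay on both sides of the control values, and the log2 fold change was 0.10 (SE 0.14, DESeq2 unadjusted p = 0.469). Irf9 (chr14:55603571-55610030, plus strand), the DNA binding subunit, had 376, 428 and 464 normalized counts in control and 410, 474.5 and 504 in p300-ifKO. The groups overlapped, and the log2 fold change was 0.13 (SE 0.16, unadjusted p = 0.413). The 95% intervals of the log2 fold change were −0.17 to 0.38 for Stat2 and −0.19 to 0.45 for Irf9, so changes inside these bounds could not be told from 0.

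Irf7, the factor that amplifies type I interferon production and is itself induced by ISGF3, showed a wider spread. Irf7 (chr7:141262706-141266481, minus strand) had 92.5, 65.1 and 55.1 normalized counts in control and 155, 85.7 and 115 in p300-ifKO. Replicates 1 and 3 of p300-ifKO were above every control library, and replicate 2 was below control replicate 1. The log2 fold change was 0.74 (SE 0.32, DESeq2 unadjusted p = 0.0198, adjusted p = 0.99). Its counts are low, with 54 to 144 reads per library.

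The IFIT proteins bind foreign RNA and block its translation. Ifit3 (chr19:34583531-34588731, plus strand) had 199, 160 and 147 normalized counts in control and 350, 191 and 395 in p300-ifKO, and p300-ifKO replicate 2 lay below control replicate 1. Its log2 fold change of 0.89 (SE 0.29), 1.85-fold, was the largest of the 9 genes (DESeq2 unadjusted p = 0.00198, adjusted p = 0.99). The value is uncertain, because 51.24% of the stretches of read length in Ifit3 also occur in Ifit3b and reads that matched both could be lost. Ifit3b, the near-identical neighbour, had 107, 87.2 and 70.4 normalized counts in control and 130, 89.2 and 156 in p300-ifKO, with the same libraries high. Ifit1 (chr19:34640871-34650009, plus strand) had 96.4, 68.3 and 91.8 normalized counts in control and 99.9, 96.3 and 178 in p300-ifKO. Replicates 1 and 3 of p300-ifKO were above the highest control library, replicate 1 by a few counts, and the log2 fold change was 0.55 (SE 0.31, DESeq2 unadjusted p = 0.0813). Without p300-ifKO replicate 3 it was 0.197. For Ifit1, 7.13% of such stretches occur in other genes.

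Isg15 encodes a ubiquitin-like protein that is conjugated to target proteins after interferon. Isg15 (chr4:156199424-156200818, minus strand) had 72.6, 55.7 and 56.1 normalized counts in control and 79.5, 42.4 and 106 in p300-ifKO, so that the p300-ifKO libraries held both the highest and the lowest value of the 6. The log2 fold change was 0.30 (SE 0.37, DESeq2 unadjusted p = 0.409). Without p300-ifKO replicate 3 it was −0.02, the only change of direction among the 9 genes when a single library was left out.

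Oasl2, of the oligoadenylate synthetase family of RNA sensors, spans chr5:114896936-114912234 on the plus strand. It had 204, 122 and 157 normalized counts in control and 285, 201 and 358 in p300-ifKO. Replicates 1 and 3 of p300-ifKO were the 2 highest libraries, and replicate 2 was just under control replicate 1. The log2 fold change was 0.80 (SE 0.28, DESeq2 unadjusted p = 0.00387, adjusted p = 0.99). Oasl2 is the longest of the 9 genes, at 6374 exonic bases.

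Bst2 encodes tetherin, which holds budding virus at the cell surface. Bst2 (chr8:71534255-71537456, minus strand) had 108, 99.8 and 78.6 normalized counts in control and 195.5, 107 and 180 in p300-ifKO. Again p300-ifKO replicates 1 and 3 were above all control libraries and replicate 2 was within their range. The log2 fold change was 0.75 (SE 0.29, DESeq2 unadjusted p = 0.00896, adjusted p = 0.99). Ifi27 (chr12:103434211-103440239, plus strand), a small membrane protein gene strongly induced by interferon alpha, had 1316, 1226 and 1034 normalized counts in control and 2176, 1195 and 1817 in p300-ifKO. The pattern over libraries was that of Bst2, at more than 1000 reads in each library, and the log2 fold change was 0.54 (SE 0.23, unadjusted p = 0.0185).

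**Figure D1:**
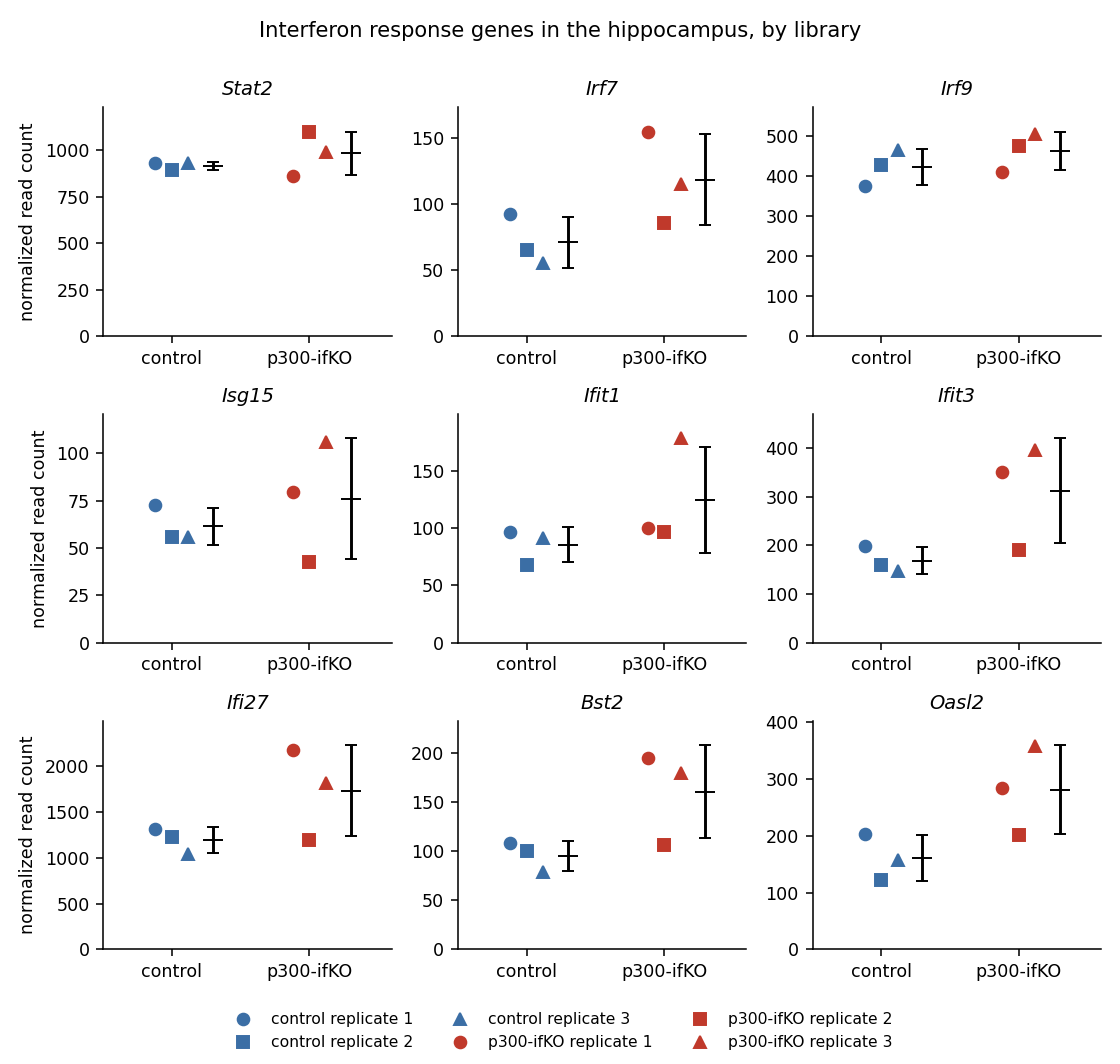
Normalized read count (vertical axes, from 0) of each of the 9 genes in the 3 control (blue) and 3 p300-ifKO (red) libraries, with marker shape giving the replicate and black bars the mean ± SD. For Irf7, Ifit3, Ifi27, Bst2 and Oasl2, p300-ifKO replicates 1 (circle) and 3 (triangle) lie above all control libraries and replicate 2 (square) lies within their range, whereas the groups of Stat2 and Irf9 overlap with little spread.

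Counted over the group, 5 of the 9 genes (Irf7, Ifit3, Ifi27, Bst2 and Oasl2) had an unadjusted DESeq2 p under 0.05 with a higher mean in p300-ifKO. The share was 0.772% of the 32773 genes tested and 1.36% of the 17071 genes with a mean normalized count of 10 or more. DESeq2 shares over all genes tested, here and below, include genes with fewer reads. In the edgeR quasi-likelihood test 0 of 9 passed after adjustment and 5 of 9 had an unadjusted p under 0.05, where 0.0117% of 17131 genes passed and 1.35% had such a p with a higher mean. In limma-voom 0 of 9 passed and 4 of 9 had an unadjusted p under 0.05, against 1.09% of genes. With 1 surrogate variable in DESeq2 it was 3 of 9 (Stat2, Ifit3 and Oasl2), against 0.177% of genes, and Irf7, Bst2 and Ifi27 had unadjusted p of 0.196, 0.102 and 0.0576. The groups were free of overlap for 0 of the 9 genes, against 4.09% of the 17071 genes with a mean normalized count of 10 or more in which every p300-ifKO library was above every control library. The median log2 fold change of the 9 genes was 0.55, and that of the 17071 genes was −0.01. As the genes were chosen with earlier results of these data known, these shares describe the list and are no test of it.

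The level differed between p300-ifKO mice. In p300-ifKO replicate 3, 9 of the 9 genes were above the highest control library, against 29.8% of the 17071 genes. In p300-ifKO replicate 1 it was 7 of 9, against 40.4%, the exceptions being Stat2 and Irf9. In p300-ifKO replicate 2 it was 2 of 9, Stat2 and Irf9, against 21.8%. With length offsets the counts in replicates 1, 2 and 3 were 7, 5 and 9 of 9, against 45.8%, 20.4% and 29.3% of genes. The exceptions in replicate 1 were then Isg15 and Ifit1, and replicate 2 gained Ifit1 (100.8 against 97.5 in the highest control library), Ifit3 (205.0 against 204.3) and Bst2 (116.2 against 111.5), each by a small margin. The median of the 9 genes relative to the control mean, on the log2 scale, was 0.85, 0.19 and 0.79 in p300-ifKO replicates 1, 2 and 3, and between −0.12 and 0.19 in the control libraries. Control replicate 1 was the highest control library for every one of the 9 genes but Irf9, and it exceeded p300-ifKO replicate 2 in Irf7, Isg15, Ifit1, Ifit3, Ifi27, Bst2 and Oasl2. By this median the p300-ifKO libraries stood in the reverse order of their Ep300 level (replicate 1 lowest, replicate 2 highest). The order depended on the summary used, also without length offsets. The mean z score of the 9 genes (log2 counts scaled per gene over the 6 libraries) was highest in replicate 3. It was 0.56, −0.07 and 1.17 in p300-ifKO replicates 1, 2 and 3. With length offsets replicate 3 had the highest median too. A relation to Ep300 was not tested in 3 mice.

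Among the 36 pairs of members, Pearson's r of log2 normalized counts over the 6 libraries ran from −0.36 (Stat2 with Isg15) to 0.98 (Ifi27 with Bst2). With the mean of the other 8 genes, Oasl2, Ifit3, Bst2, Ifit1, Ifi27, Irf7 and Isg15 had an r between 0.96 and 0.68, in falling order, whereas Irf9 had one of 0.22 and Stat2 one of 0.02. These correlations describe 6 libraries that also share the length trend. Ranked in the same way over 13614 genes, the genes outside the lists examined here that followed the mean of the 9 most closely were Gm5112 (r = 0.97), Hpgd (r = 0.97), Ptgs1 (r = 0.96), Psmd5 (r = 0.96) and Bcl10 (r = 0.96).

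Of the fits that left out 1 library, the one without p300-ifKO replicate 2 moved the counts most. As that library is the one with low values of most members, its removal favors calls among them, and the values below describe how far 1 library decides the result and are no separate evidence of a change. In that DESeq2 fit, with 2 p300-ifKO and 3 control libraries, 4 of the 9 genes had an adjusted p under 0.05 with a higher mean in p300-ifKO. Ifit3 had a log2 fold change of 1.15 (adjusted p = 0.000375). Ifi27 had one of 0.75 (adjusted p = 0.00343), Oasl2 one of 0.9996 (adjusted p = 0.0161) and Bst2 one of 0.98 (adjusted p = 0.0216), all from DESeq2. The background in the same fit was 4.11% of 11726 genes called as higher and 3.79% called as lower, 926 genes in all, against 2 with all libraries. Irf7, Isg15 and Ifit1 received no adjusted p from DESeq2 there, and Stat2 and Irf9 were at 0.02 and 0.12 on the log2 scale. The edgeR test without the same library called 0 of the 9 genes, with the smallest adjusted p at 0.164, and 7 of 9 had an unadjusted p under 0.05, against 13.8% of 17417 genes. With all libraries but p300-ifKO replicate 3, 1 of 9 (Ifit3) had an unadjusted p under 0.05 in DESeq2, against 0.342% of genes. Without control replicate 3 there were 2 (Ifit3 and Oasl2), against 0.256% of genes. The other fits gave more, here with backgrounds that pool both directions. There were 5 without p300-ifKO replicate 1 (against 133 of 32234 genes) and 5 without control replicate 1 (against 248 of 32138). There were 4 without control replicate 2 (against 287 of 32234) and 6 without p300-ifKO replicate 2 (against 12.8%).

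**Figure D2:**
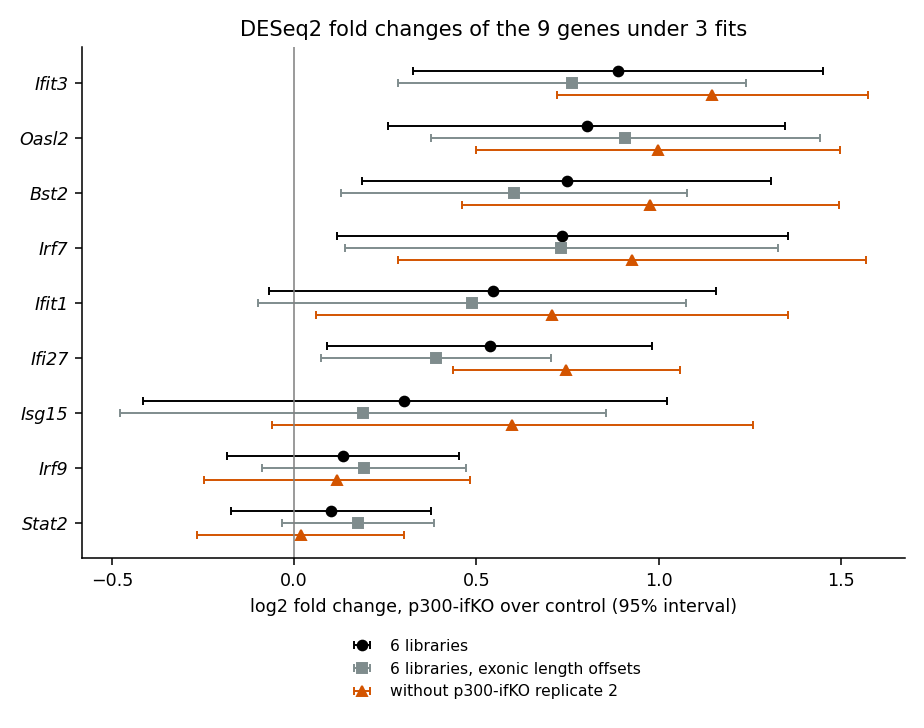
DESeq2 log2 fold change of p300-ifKO over control with its 95% interval for each of the 9 genes, from all 6 libraries (black circles), from 6 libraries with exonic length offsets (grey squares) and without p300-ifKO replicate 2 (orange triangles). Stat2, Irf9 and Isg15 span 0 in all 3 fits, and Ifit3 moves from 0.89 with all libraries to 1.15 without p300-ifKO replicate 2.

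The length trend moved with these differences, and its part in them was not tested beyond the values that follow. Genes of over 1000 to 2000 exonic bases had a median log2 fold change of 0.20 over 2179 genes, and genes over 4000 bases one of −0.08 over 8734 genes. Oasl2, among the latter, was above 99.9% of them. Irf7, Ifit3 and Ifit1 were above 98.9%, 98.6% and 97.4% of the genes of their own length class, Bst2 and Ifi27 above 94.4% and 92.8%, Irf9 and Stat2 above 88.1% and 84.5%, and Isg15 above 62.2%. With a length offset per library in DESeq2, the log2 fold change was 0.91 for Oasl2, 0.76 for Ifit3, 0.73 for Irf7, 0.60 for Bst2 and 0.39 for Ifi27, each with an unadjusted p under 0.05 and an adjusted p above 0.99. The background in this fit was 0.9% of 32773 genes. After the offset the per-library medians of the 9 genes were 0.56, 0.23 and 0.71 in p300-ifKO replicates 1, 2 and 3, and −0.09 to 0.17 in control. Without p300-ifKO replicate 2, the fit with offsets called Ifit3, Ifi27 and Oasl2, where 1.93% of 11129 genes were called as higher.

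**Figure D3:**
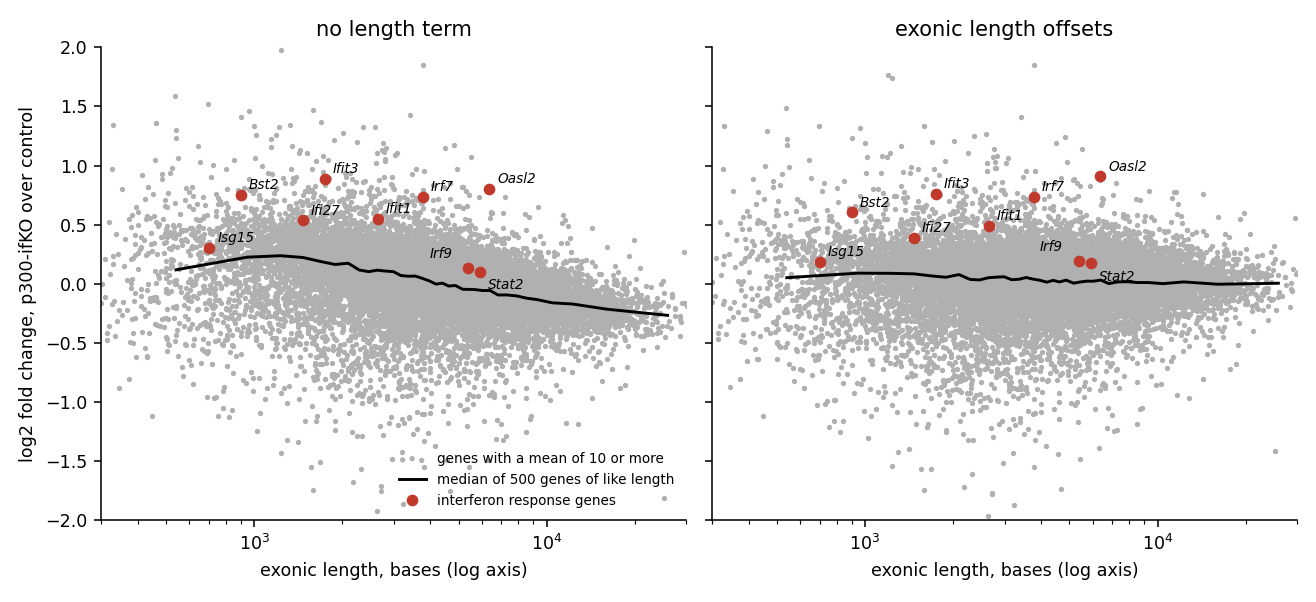
Log2 fold change of p300-ifKO over control (vertical axis) against exonic length in bases (log axis) for genes with a mean normalized count of 10 or more (grey), without a length term (left) and with exonic length offsets (right). The black line is the median of successive groups of 500 genes, the 9 interferon response genes are in red, and 108 genes on the left and 107 on the right lie outside the axes. Beyond about 1000 bases the line falls with length on the left and is nearly flat on the right, and Ifit3, Irf7 and Oasl2 lie far above it in both.

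A wider list of 92 other genes of the interferon pathway, also chosen with earlier results known, was read by role from the same fit. Of these, 78 had a mean normalized count of 10 or more: 58 had a higher and 20 a lower mean in p300-ifKO, with a median log2 fold change of 0.20. None passed the DESeq2 test, 11 had an unadjusted p under 0.05 with a higher mean and 0 with a lower mean, against 1.36% and 0.879% of the 17071 genes. In edgeR 0 passed and 10 had an unadjusted p under 0.05, against 394 of 17131 genes. Leaving out 1 library gave 2 (without p300-ifKO replicate 3, against 0.591% of all genes) to 18 (without p300-ifKO replicate 2, against 12.8%) in DESeq2. The count was 4 when p300-ifKO replicate 1 was dropped, against 133 of 32234 genes. It was also 4 when control replicate 2 was dropped, against 287 of 32234. With 1 surrogate variable it was 3, against 0.659%. These edgeR, leave-one-out and surrogate variable counts, and the backgrounds beside them, pool both directions. In 12 of the 78 genes every p300-ifKO library exceeded every control library, against the 4.09% given above, and 0 were free of overlap in the lower direction, against 3.37%.

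The signaling chain above the response genes showed little. The 9 interferon ligand genes had 7 reads in all over the 6 libraries, so their expression was not measurable at this depth. The receptor subunits had log2 fold changes from −0.03 (Ifnar1) to 0.22 (Ifnar2) in the 5 genes with enough reads. Ifngr2, the most abundant receptor gene per length, had 1425 to 1719 normalized counts in control and 1600 to 1988 in p300-ifKO. The kinases Jak1, Jak2 and Tyk2 had values from −0.17 to −0.03. Jak1, which serves every interferon receptor and was the most abundant of the 3, had 5459 to 6016 normalized counts in control and 4480 to 5869 in p300-ifKO.

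Of the 7 other STAT and IRF genes, 5 had a higher mean in p300-ifKO, with 0.23 as the median on the log2 scale. Irf3, the most abundant of these per length and the factor activated by nucleic acid sensors, had 560 to 648 normalized counts in control and 620 to 831 in p300-ifKO. The 12 nucleic acid sensing genes were split, with 7 higher, 5 lower and a median log2 fold change of 0.01. Tbk1, the kinase that activates IRF3 and the most abundant of them per length, had 1428 to 1530 normalized counts in control and 1420 to 1567 in p300-ifKO.

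Among the 5 genes of the ISG15 conjugation pathway, Usp18 had the smallest unadjusted p of the whole wider list. USP18 removes ISG15 from proteins and also limits signaling at the type I receptor. Usp18 had 52.7, 33.6 and 35.7 normalized counts in control and 88.1, 55.7 and 107 in p300-ifKO, and the groups did not overlap. The log2 fold change was 1.03 (SE 0.35, unadjusted p = 0.00325, adjusted p = 0.99 in DESeq2), from 32 to 111 reads per library. Ube2l6, the conjugating enzyme for ISG15 and the most abundant of the 5 per length, had 110 to 118 normalized counts in control and 110 to 153 in p300-ifKO.

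Of the 30 other type I effector genes with enough reads, 27 had a higher mean in p300-ifKO, 7 of them with an unadjusted p under 0.05 (against 1.36% of the 17071 genes), and the median log2 fold change was 0.27. In p300-ifKO replicates 1, 2 and 3, 18, 8 and 22 of the 30 were above the highest control library, against 40.4%, 21.8% and 29.8% of the 17071 genes, so that replicate 2 was near the background. Mx1, a GTPase active against influenza virus whose transcript is truncated in many laboratory strains, had 11.9, 4.20 and 3.06 normalized counts in control and 31.1, 9.72 and 28.9 in p300-ifKO, from only 3 to 30 reads. Ifi27l2a, a relative of Ifi27 and its neighbour on chromosome 12, had 35.8, 15.8 and 25.5 normalized counts in control, against 103, 27.4 and 68.5 in p300-ifKO. Both were high in p300-ifKO replicates 1 and 3 and within the control range in replicate 2, with log2 fold changes of 1.85 (SE 0.72) and 1.36 (SE 0.51).

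Ifi35, an interferon-induced leucine zipper protein gene, had 64.6, 59.9 and 63.3 normalized counts in control and 133, 68.0 and 111 in p300-ifKO. The groups did not overlap and the log2 fold change was 0.73 (DESeq2 unadjusted p = 0.0171), although 16.79% of its exonic bases are shared with Gm11626 on the other strand. Lgals3bp, a secreted galectin binding protein, had 610.5, 473 and 458 normalized counts in control and 749, 574 and 879.5 in p300-ifKO. Its groups overlapped, with a log2 fold change of 0.51 (DESeq2 unadjusted p = 0.0133). Adar, the RNA editing enzyme and the most abundant effector gene per length, had 3620 to 4010 normalized counts in control and 1897, 4182 and 3053 in p300-ifKO, so that its lowest value was in p300-ifKO replicate 1.

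The 12 interferon gamma effector genes with enough reads had a median log2 fold change of 0.35, with 9 higher and 3 lower. Igtp, a GTPase that acts on vacuoles holding intracellular pathogens and the most abundant of these per length over all 6 libraries (in control it was below Irgm1 and Gbp3), had 153, 90.3 and 76.5 normalized counts in control and 235, 137 and 204.5 in p300-ifKO. Its p300-ifKO replicate 2 lay below control replicate 1, and the log2 fold change was 0.85 (SE 0.32, DESeq2 unadjusted p = 0.00805). Of the negative regulators, Trex1 was listed at 0 in all libraries, and 100% of its exonic bases lie in exons of Atrip, so that its reads may not be assigned. The other 4 were split 2 and 2, with Pias1, the most abundant per length, at 1800 to 2040 normalized counts in control and 1304 to 2014 in p300-ifKO.

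**Figure D4:**
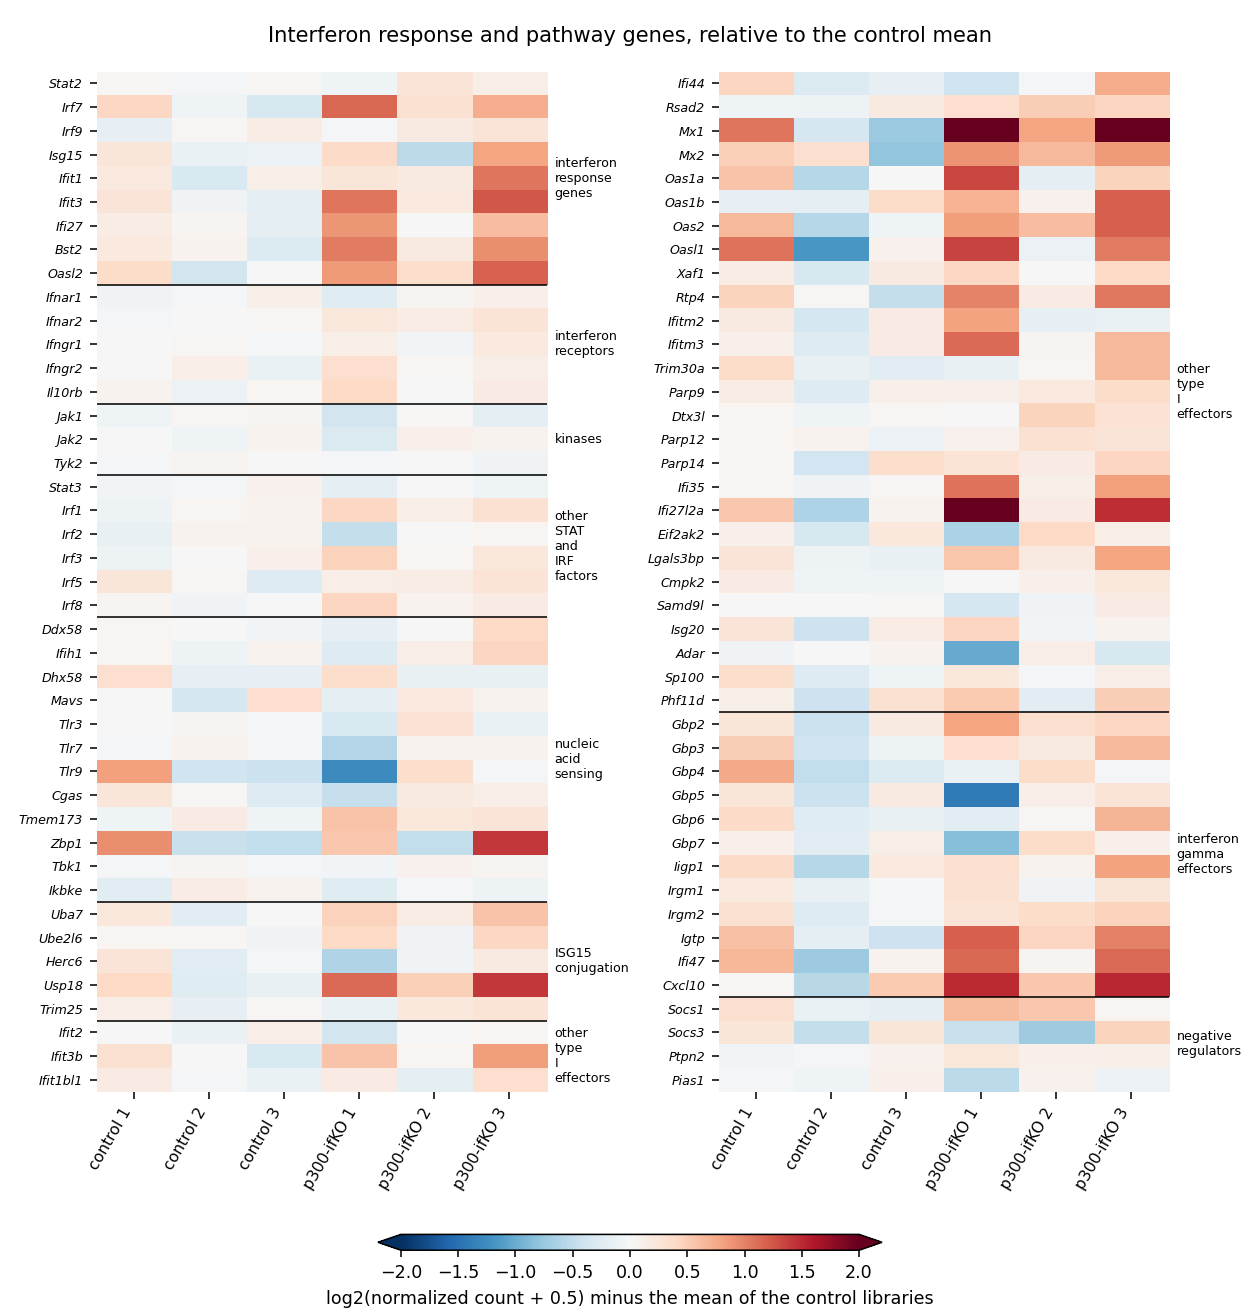
Log2(normalized count + 0.5) minus the mean of the control libraries (color, from −2 to 2) for the 9 interferon response genes and 77 other pathway genes with a mean normalized count of 10 or more, in rows grouped by role, and the 6 libraries in columns. Red marks higher values: p300-ifKO 1 and 3 are red for most effector genes, with Mx1 and Ifi27l2a the strongest in p300-ifKO 1, while the receptors and kinases stay near white.

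Markers of other cell types were read in the same libraries, without the length offsets, and their part in these differences was not tested. The 10 microglia markers had a higher mean in p300-ifKO for 8 of 10, and their summed level was 744 to 810 TPM in control and 1029, 813 and 898 TPM in p300-ifKO replicates 1, 2 and 3. C1qa, a complement gene of microglia, had 911 to 1085 normalized counts in control and 1885, 1003 and 1381 in p300-ifKO. Its order of p300-ifKO replicates (1, 3 and 2 from high to low) was found in 8 of 10 microglia markers and in 35.7% of the 17071 genes. Only 3 of the 9 interferon response genes (Irf7, Ifi27 and Bst2) had this order, near that share. Of the 54 markers of the other cell types 23 had it, blood (5 of 5) and oligodendrocytes (5 of 6) included. Cx3cr1 and P2ry12, which define homeostatic microglia, had no higher mean in p300-ifKO, with 1199 to 1369 normalized counts of Cx3cr1 in control and 1077, 1420 and 1145 in p300-ifKO. C1qa has 1040 exonic bases and Cx3cr1 4505. Other microglia markers did not follow that contrast in length. Trem2 (4946 bases) and Csf1r (5774 bases) had log2 fold changes of 0.42 and 0.11, and P2ry12 (2546 bases) had one of −0.02. Of all genes of over 1000 to 2000 bases, 68.4%, 14.4% and 48.8% were above the highest control library in p300-ifKO replicates 1, 2 and 3. Of genes over 4000 bases, 21.7%, 27.1% and 17.4% were. The 8 endothelial markers summed to 217 to 231 TPM in control and 222 to 246 TPM in p300-ifKO. Lymphocyte and neutrophil markers had only 0 to 18 reads per gene and library. Of these 6 markers 5 had a higher mean in p300-ifKO, with a median log2 fold change of 0.99 and sums of 1.92 to 4.67 TPM in control and 4.66 to 7.16 TPM in p300-ifKO. The border macrophage list summed to 4.16 to 11.3 TPM in control and 5.09 to 6.79 TPM in p300-ifKO. In the same order of groups, astrocyte markers summed to 2016 to 2114 and 1762 to 2021 TPM, oligodendrocyte markers to 2602 to 3624 and 2900 to 3139 TPM, and excitatory neuron markers to 5705 to 6373 and 5919 to 6403 TPM. Interneuron markers summed to 1461 to 1830 and 1385 to 1869 TPM, choroid plexus markers to 27.8 to 397 and 106 to 595 TPM, and blood markers to 411 to 827 and 292 to 625.5 TPM.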

How the data were processed

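Single-end reads of 50 bp were trimmed with Trim Galore (version 0.6.4), checked with FastQC (version 0.11.8), aligned with STAR (version 2.6.1) to GRCm38 and filtered on mapping quality by the authors, who counted reads on Ensembl exons with Rsubread. The deposited values are raw counts per gene. A strand setting is not given in the sources used here. Symbols came from GENCODE M21 (55230 of 55471 identifiers matched).

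The 3 p300-ifKO and 3 control libraries were compared with DESeq2 (version 1.42.0, R 4.3.3; the authors used version 1.30.1), with a two-sided Wald test, median of ratios size factors and no covariate. Benjamini-Hochberg adjustment covered 32773 genes, with a threshold of 0.05. TPM was computed from counts and the deposited exonic lengths. Alternatives used edgeR (version 4.0.16), limma-voom (version 3.58.1), sva (version 3.50.0) and smooth length offsets from mgcv (version 1.9.3). The scripts were tested on simulated data. Replicates were separate mice, and 3 per group limit the precision.

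Members, lists and tests were chosen with earlier results of these data known. Named pathway genes were the 6 with the smallest unadjusted p (mean normalized count of 10 or more) and the most abundant gene per length of each role. Genes of like pattern needed a mean of 50 or more. One gene of the wider list is counted but not reported here by name.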

Additional observations from a re-analysis of the deposited data

How the results depend on the processing

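The count of interferon response genes called was 0 in every fit with all 6 libraries (DESeq2, edgeR with and without a filter, limma-voom, TMM factors, a minimum of 10 counts in 3 libraries, independent filtering off, a replicate block, 1 surrogate variable and length offsets), and the 9 genes had a higher mean in p300-ifKO in each of these. Whether replicate numbers paired the mice cannot be decided from 3 mice per group (correlations of deviations 0.266, −0.276 and 0.143). With the replicate block the called genes of the whole table were 4 rather than 2, the members called 0, the other pathway genes called 0 and the members' median log2 fold change 0.51. Leaving out each library gave 2 to 926 called genes, 0 to 4 called members, 0 to 5 called pathway genes and a members' median of 0.50 to 0.75. The upper end of each came without p300-ifKO replicate 2, where the pathway genes included Ifitm3, Lgals3bp and Igtp, higher, and Adar, lower. Chosen after seeing the data, length offsets without that library called 342 genes, 3 members and 2 pathway genes (Lgals3bp among them), and edgeR without it called 2, 0 and 0. Over the fits that kept all libraries the lowest members' median was 0.38, with 1 surrogate variable. Directions that reversed were those of Isg15 without p300-ifKO replicate 3 (−0.019, within a range of −0.019 to 0.598 over the libraries left out), Pias1 with 1 surrogate variable (0.034) and Crebbp with length offsets (0.17, and 0.27 without p300-ifKO replicate 2 as well), and the cause was not tested. Arsi received no adjusted p in the DESeq2 fits without p300-ifKO replicate 2. The lowest member counts, of Isg15 and Irf7, were 48 and 54 reads in a library, which limits these genes most. Intervals come from the DESeq2 standard error, which uses a dispersion moderated over all genes and is not the plain spread of the 3 libraries per group.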
